A study of Homo sapiens with 4 samples.

Results

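The MYC and MAX network is a family of paired DNA-binding proteins, and 9 of its genes were followed here through maps of PPARα and PML/RARA on the chromatin of NB4 cells. The genes are MYC, MAX, MXD1, MXD3, MXD4, MXI1, MNT, MGA and MLX, out of 19974 protein-coding genes analysed. They were listed by name, and every peak in a gene or within 50 kb on each side was taken, with the 2 Mb downstream of MYC added. These windows held 37 of 9819 PPARα peaks and 122 of 45988 PML/RARA peaks.

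NB4 is an established human cell line from acute promyelocytic leukemia, and its leukemic driver is the fused PML and RARA gene. CUT&Tag, in which an antibody directs a transposase to its target on chromatin, was run on 4 libraries. There was 1 for PPARα, 1 for PML/RARA, and for each an IgG library. The labels call the antibody libraries treatment and the IgG libraries control, and name no drug or genotype. The values used here are the authors' peak lists, 1 per antibody, so there is no replicate, no test between samples, and no p-value. Read depth behind the lists is unknown, and the labels do not say which piece of PML/RARA its antibody sees, so the normal PML or RARA protein cannot be told apart from the fusion. Each peak has a fold enrichment, which is the authors' ratio of signal to background on a linear scale, and a q-value written as −log10. Folds are set against others of the same antibody only, because each list has its own scale.

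MYC and its relatives act as dimers. MYC pairs with MAX, binds the E-box sequence CACGTG and activates genes for growth, ribosomes and metabolism. MXD1, MXI1, MXD3, MXD4 and MNT pair with MAX at the same sequence and recruit SIN3 and histone deacetylases, so they oppose MYC, and MXD1 accumulates as myeloid cells differentiate. MGA pairs with MAX within a variant Polycomb complex, and MLX is a MAX-like partner for some MXD proteins, MNT and the glucose-sensing MLXIP and MLXIPL. PPARα is a fatty acid-activated nuclear receptor that binds DNA with RXR, and PML/RARA is the fusion receptor of this leukemia. The chromatin around these genes is what was measured; RNA and protein were not.

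The promoter of 3 network genes holds the E-box that the network itself binds, and 1 holds the nuclear receptor hexamer AGGTCA. Every such match is shown, and both antibodies had a peak within 1 kb of each of these starts. Sequences come from the RefSeq promoter table of GRCh38.p14, which gives 300 bases per start (250 before it and 50 after), and 8 of the 9 genes matched. Each line runs 5′ to 3′ in the direction of transcription, lies before the start, and has the motif in capitals. MXD4 is at chr4:2262297-2262359 on the minus strand, MNT at chr17:2401203-2401298 on the minus strand, MLX at chr17:42567005-42567099 on the plus strand, and MXD3 at chr5:177312792-177312887 on the minus strand.
MXD4 E-box: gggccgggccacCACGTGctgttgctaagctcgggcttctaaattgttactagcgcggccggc
MNT E-box: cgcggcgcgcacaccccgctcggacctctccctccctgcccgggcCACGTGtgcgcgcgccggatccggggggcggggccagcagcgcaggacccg
MLX E-box: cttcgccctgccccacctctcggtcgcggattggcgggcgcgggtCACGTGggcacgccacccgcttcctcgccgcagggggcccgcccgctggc
MXD3 hexamer: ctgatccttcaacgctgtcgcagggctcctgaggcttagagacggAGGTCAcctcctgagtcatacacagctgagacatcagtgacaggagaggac

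The MXD4 E-box lay 238 bases before the start, under peaks of both lists. The PPARα summit was 28 bases from it and the PML/RARA summit 52 bases. In MLX the E-box lay 50 bases before the start, also under both peaks, with the PML/RARA summit 72 bases away and the PPARα summit 319 bases away. The MNT E-box, 193 bases before the start, was under the PML/RARA peak only, with that summit 434 bases away and the PPARα summit at 615 bases. In MXD3 the hexamer was 90 bases before the start, under the PML/RARA peak and outside the PPARα peak. The PML/RARA summit was 470 bases away and the PPARα summit 235 bases. MXD4 was thus the promoter where both summits sat closest to the motif shown.

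CACGTG occurred in 8.32% of the 22012 distinct promoter windows of protein-coding genes and in 3 of the 13 windows of the network. The share was 11.1% of windows with peaks of both lists, 10.2% of those with PML/RARA alone and 6.05% of those with no peak, with base composition unmatched between these classes. AGGTCA on either strand occurred in 11.9% of all windows and 1 window of the network. Any of 4 such words occurred in 35.5% of all windows and in 5 of 13 network windows (of MAX, MGA, MLX, MXD3 and MXI1). The words were AGGTCA with its close variants AGTTCA or GGGTCA and also GGTTCA. Their share in the same classes, in the same order, was 31.1%, 30.6% and 39.8%. Tandem pairs of these words, both pointing the same way and spaced by 1, 2 or 5 bases, occurred in 0.132%, 0.0318% and 0.0772% of all windows and in no network window. A match is only a match of letters in 300 bases. The E-box was seen in these promoters before the search was written.

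General promoter elements were common. The GC box GGGCGG on either strand occurred in 56.3% of all windows and in 10 of 13 network windows, from all 8 genes. Its share was 75.7% of windows with peaks of both lists, 75.8% with PML/RARA alone and 38.0% with no peak. CCAAT on either strand occurred in 34.7% of all windows and in 5 of 13 network windows (of MGA, MLX, MXD1, MXD3 and MXD4). The median GC content was 66.3% over the network windows (55 to 76) and 62.3% over all windows (interquartile range 53 to 70). The 100 bases before the MXD1 start (chr2:69915009-69915108) and before the innermost MXI1 start (chr10:110225896-110225995) are shown, both on the plus strand. MXD1 had the highest PPARα start fold of the family, and this MXI1 start was the only one of its gene with PPARα within 1 kb. The MXI1 stretch itself lies outside that PPARα peak, which begins at 110226084, inside the gene. Capitals mark CCAAT and the GC box, on either strand.
MXD1 upstream: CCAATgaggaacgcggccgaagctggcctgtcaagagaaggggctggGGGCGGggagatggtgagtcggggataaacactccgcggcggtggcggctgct
MXI1 upstream: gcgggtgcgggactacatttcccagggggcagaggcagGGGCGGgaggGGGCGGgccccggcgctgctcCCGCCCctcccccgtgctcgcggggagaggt

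Each of the 9 genes had peaks of both lists at 1 or more of its starts. Within 1 kb of an annotated gene end, PPARα had a peak at 7 of 9 genes, against 32.3% of all protein-coding genes, and PML/RARA at 8 of 9, against 57.8%. Both lists had a peak at 7 of 9, against 31.9%. The exceptions were MXI1 for PPARα and MGA for both, and each of these 2 genes had its peaks at an inner start. At the starts of the promoter table, PPARα peaks were found at 8 of 8 genes (35.1% of 15812 genes in the table), PML/RARA peaks at 8 of 8 (59.7%), and both at 8 of 8 (34.8%). MYC is not in that table and is described by its lower annotated end, where transcription begins on the plus strand, and that end had peaks of both lists. Genes of a network chosen by name are not a random draw, and they were chosen with earlier results of these data known. These counts therefore describe the family and carry no test.

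**Figure D1:**
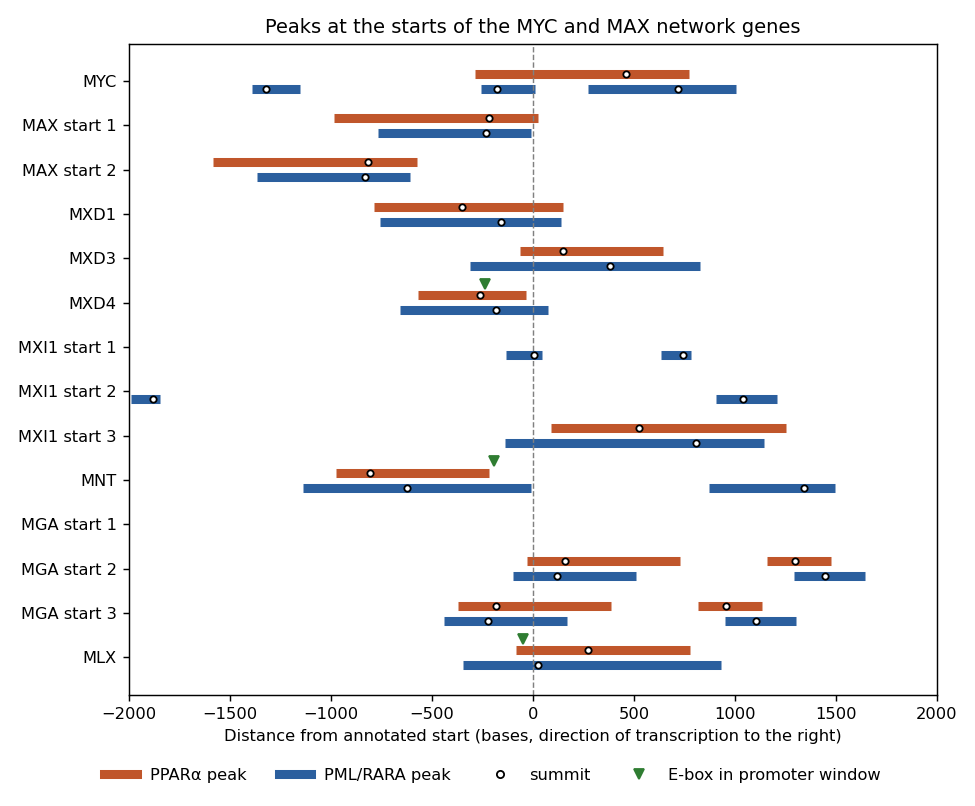
Peaks of PPARα (orange) and PML/RARA (blue) around each annotated start of the 9 genes, drawn as bars with a circle at the summit, against distance from the start in bases. Green triangles mark the E-box in the MXD4, MNT and MLX promoters, and the outer MGA start has no peak of either list.

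The median fold of the family's start peaks was below that of all coding start peaks in both lists, while MXD1 and MXD4 lay above the interquartile range for PPARα. For the best start peak of each gene, the median PPARα fold was 6.44 (3.94 to 12.6), against 7.14 over the 5551 coding genes with such a peak (interquartile range 5.62 to 9.40). For PML/RARA the median was 10.3 (6.87 to 20.6), against 14.7 over 9442 genes (9.82 to 19.7). The median −log10 q of the same peaks was 8.47 against 8.41 for PPARα, and 85.3 against 45.5 for PML/RARA. The PML/RARA peaks of the network had a lower median fold and a higher median −log10 q than start peaks in general.

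**Figure D2:**
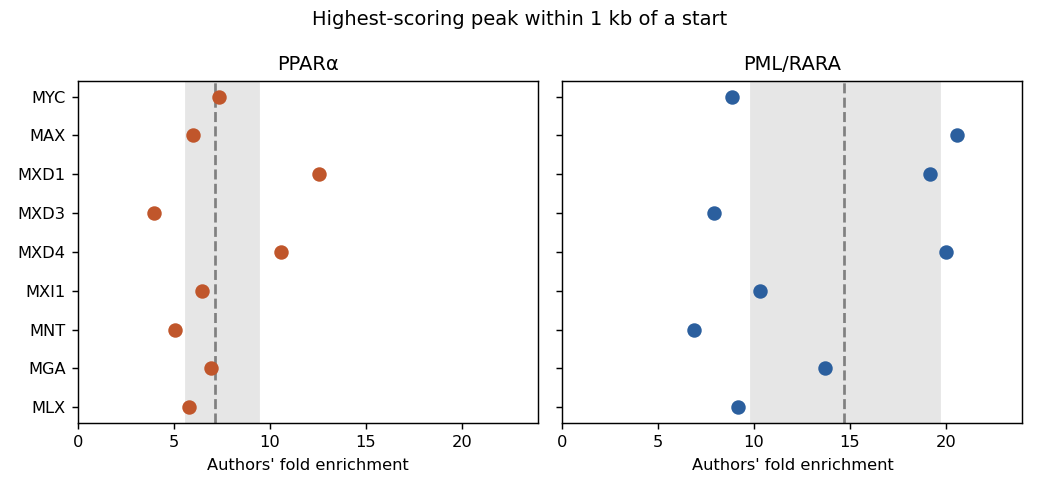
Authors' fold enrichment of the highest-scoring peak (by −log10 q) within 1 kb of a start, 1 point per gene, PPARα at left and PML/RARA at right. The dashed line is the median and the grey band the interquartile range over all protein-coding genes with a start peak; MXD1 and MXD4 lie above the PPARα band, and MAX and MXD4 lie above the PML/RARA band.

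MYC, the activator of the family, lies at chromosome 8, 127735434 to 127742951. Its start was covered by a PPARα peak of 1059 bases (127735149 to 127736207) with fold 7.34 and −log10 q 23.96, whose summit lay 462 bases into the gene. PML/RARA had 2 peaks that overlapped it. The first had fold 7.35 and −log10 q 35.4 with its summit upstream, at position -177 from the start, and the second had fold 8.85 and −log10 q 49.4 with its summit 718 bases into the gene. The PPARα summit therefore fell between the PML/RARA summits, 256 bases from the second. A weaker PML/RARA peak lay 1.32 kb before the start (fold 4.11) and another 2.31 kb into the gene (fold 4.82). At the far end both lists had a peak again, PPARα with fold 5.29 and PML/RARA with fold 9.09, with summits 162 bases apart. MYC stood at the middle of PPARα start folds (percentile 52.9) and lower among PML/RARA start folds (percentile 20.5).

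MAX, the obligate partner of MYC at the E-box and a partner of the MXD proteins, lies at chromosome 14, 65006101 to 65102695, on the minus strand. Its start had the highest PML/RARA fold of the family, 20.6 with −log10 q 99.9, and a PPARα peak of only fold 5.97 and −log10 q 6.04. The summits were 17 bases apart, the closest pair at any start described here. Inside MAX a second pair of peaks lay 47.8 kb from the gene's outer end, PML/RARA with fold 19.0 and −log10 q 52.8 and PPARα with fold 6.72 and −log10 q 6.87, summits 38 bases apart. Another pair, 59.9 kb in, was weak in both lists (PPARα 4.90, PML/RARA 5.21), with summits 1 base apart. The sequence of those body peaks also lies inside FNTB and the read-through gene CHURC1-FNTB, so they cannot be assigned to MAX alone. The highest PPARα peak of the window was at an end of FNTB itself, with fold 15.7 and −log10 q 36.2, over PML/RARA of fold 12.8. PML/RARA without PPARα lay at 30.2 kb (fold 11.1), at 57.9 kb (fold 14.7) and, weakly, at 59.5 kb (fold 4.02).

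The PML/RARA peak at 57.9 kb (65044587 to 65044906, −log10 q 36.7) covers the hairpin of MIR4706 (65044688 to 65044769). Of 1558 miRNA hairpins in the annotation, 96 were overlapped by a PML/RARA peak, which is 6.16%. Neither MIR4800 in MXD4 nor MIR626 in MGA was covered by a peak of either list. The hairpin comparison was added after the peaks had been seen, and a peak over a hairpin says nothing about the level of the miRNA. The mature sequence of hsa-miR-4706 (RefSeq, GRCh38.p14, plus strand) is shown with its seed, bases 2 to 8, in capitals.
hsa-miR-4706: aGCGGGGAggaagugggcgcugcuu

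MXD1, which rises as myeloid cells mature and represses MYC targets, carried the strongest PPARα start peak of the family by fold and −log10 q. MXD1 lies at chromosome 2, 69915109 to 69942945. The PPARα peak (69914324 to 69915259) had fold 12.6 and −log10 q 39.3, at percentile 92.8 of PPARα start folds. The PML/RARA peak (69914353 to 69915247) had fold 19.2 and −log10 q 284, at percentile 73.1. Both peaks covered the start and nearly the same bases, with summits 196 bases apart, before the start. Inside MXD1, PML/RARA alone had peaks at 12.3 kb (fold 12.8) and 18.5 kb (fold 7.22). Beyond its end, in PCBP1-AS1 and ASPRV1 sequence, 2 tall PML/RARA peaks stood at 63.6 kb (fold 22.9, −log10 q 120) and 70.8 kb (fold 19.4, −log10 q 79.6). Each overlapped a low PPARα peak, with folds 5.45 and 5.60.

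MXD4 was the other MXD gene with high folds in both lists. It lies at chromosome 4, 2247432 to 2262109, on the minus strand. Its PPARα peak had fold 10.6 and −log10 q 22.8 (percentile 83.9), and its PML/RARA peak had fold 19.99 and −log10 q 368 (percentile 76.3), the highest −log10 q at any start of the family. The summits were 80 bases apart, both upstream of the start. No other peak of either list lay in the MXD4 gene. The next PML/RARA peak by −log10 q in its window was at HAUS3 and POLN, 19.9 kb away, with fold 25.6 and −log10 q 340, over a PPARα peak of fold 6.49.

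MXD3, which unlike the other MXD genes is known for expression in cycling cells, had the lowest start peak for PPARα. It lies at chromosome 5, 177305499 to 177312752, on the minus strand. The PPARα peak had fold 3.94 and −log10 q 3.26, at percentile 1.96 of PPARα start folds. The PML/RARA peak had fold 7.93 and −log10 q 49.0, at percentile 16.5. The summits lay 235 bases apart, inside the gene. With PPARα peaks of −log10 q at least 5, or of fold at least 5, MXD3 had no PPARα peak in its whole window. A second pair of peaks inside MXD3, PPARα with fold 3.63 and PML/RARA with fold 8.46, lay within 1 kb of an end of the neighbouring gene PRELID1. The tallest peak in its window was PML/RARA at LMAN2, with fold 20.3 and −log10 q 73.9.

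MXI1 had PML/RARA peaks within 1 kb of every annotated start and PPARα at the innermost start only. It lies at chromosome 10, 110207605 to 110287365, and has 3 annotated starts. At the outermost start (110207605) and at the next (110210231) only PML/RARA had peaks, with highest −log10 q of 13.7 (fold 5.88) and 44.98 (fold 11.3). At the third start (110225996) PPARα had its only peak in the gene, with fold 6.44 and −log10 q 8.47, and PML/RARA had fold 10.3 and −log10 q 75.9. The summits there lay 280 bases apart, both inside the gene. PML/RARA alone had weaker peaks at 14.4 kb (fold 3.85) and 66.0 kb (fold 5.71). The innermost MXI1 start was thus the only one with PPARα within 1 kb. That peak (110226084 to 110227249) lay inside the gene and did not cover the start. PML/RARA without PPARα is common, since 36149 of 45988 PML/RARA peaks overlapped no PPARα peak.

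MNT, a broadly expressed MAX-dependent repressor, lies at chromosome 17, 2384073 to 2401060, on the minus strand. Its PPARα start peak had fold 5.02 and −log10 q 5.82, with the summit upstream, at position -805 from the start. The PML/RARA peak over it (2401069 to 2402201) had fold 6.09 and −log10 q 71.8. A second PML/RARA peak 1.34 kb inside the gene had fold 6.87 and −log10 q 94.4 and no PPARα partner. MNT carried its highest peaks in the body and not at the start. At 8.15 kb inside, PML/RARA had fold 11.1 and −log10 q 157, and PPARα at 8.41 kb had fold 6.82 and −log10 q 9.87, with summits 267 bases apart. Further PML/RARA peaks lay at 4.13 kb (fold 6.31, −log10 q 107) and 7.21 kb (fold 4.88, −log10 q 36.6).

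MGA, the large repressor that brings MAX into the Polycomb complex PRC1.6, showed no peak at its outermost start. MGA lies at chromosome 15, 41621224 to 41769940. Inner starts at 41660405 and 41660747 shared a PPARα peak of fold 6.94 and −log10 q 8.88 and a PML/RARA peak of fold 13.7 and −log10 q 54.1, summits 40 bases apart. A second pair just inside had PPARα fold 4.84 and PML/RARA fold 12.0, with summits 146 bases apart. PML/RARA alone had 2 lower peaks at 69.4 kb (fold 3.56) and 74.99 kb (fold 8.87). The window's tallest peaks belonged to the start region of the neighbour MAPKBP1, where PPARα reached fold 14.0 and PML/RARA fold 21.4.

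MLX, the MAX-like partner, lies at chromosome 17, 42567100 to 42573203. Its start was covered by both peaks, PPARα with fold 5.77 and −log10 q 7.04 and PML/RARA with fold 9.14 and −log10 q 85.3, summits 247 bases apart. These peaks also lie within 1 kb of an end of COASY, so the start region is shared. MLX has the most crowded surroundings of the family, with 15 PML/RARA peaks within 50 kb (higher than 89.6% of coding genes by rank), most of them at or beyond its neighbours. The highest was at RETREG3 and TUBG1, with fold 24.4, −log10 q 244 and no PPARα overlap. The highest PPARα peak by −log10 q was at NAGLU, with fold 7.08 and −log10 q 7.44.

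Over the whole family, the neighbourhoods held more peaks than the typical gene. PPARα had a median of 3 peaks per gene and its 50 kb flanks (2 to 4), against 1 over all coding genes (interquartile range 0 to 2), where 65.1% of genes have at least 1. PML/RARA had a median of 10 (7 to 15), against 4 (1 to 9), where 84.1% of genes have at least 1. Gene length and the density of neighbouring genes were not matched. The genes with 50 kb flanks held 26 PPARα and 92 PML/RARA peaks, and the classes that follow also take in the 2 Mb downstream of MYC. Of the 37 PPARα peaks, 10 lay at an own start, 1 at the other end, 3 in an own body, 9 at another coding gene and 14 elsewhere. Of the 122 PML/RARA peaks the numbers were 15, 1, 14, 23 and 69. Most PPARα and many PML/RARA peaks of the class elsewhere came from the MYC region. Every PPARα peak at an own start, end or body, or at another gene, overlapped a PML/RARA peak, and the 4 PPARα peaks without one were all in the class elsewhere. Over all PPARα peaks 90.1% overlapped PML/RARA, a share not split by class.

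**Figure D3:**
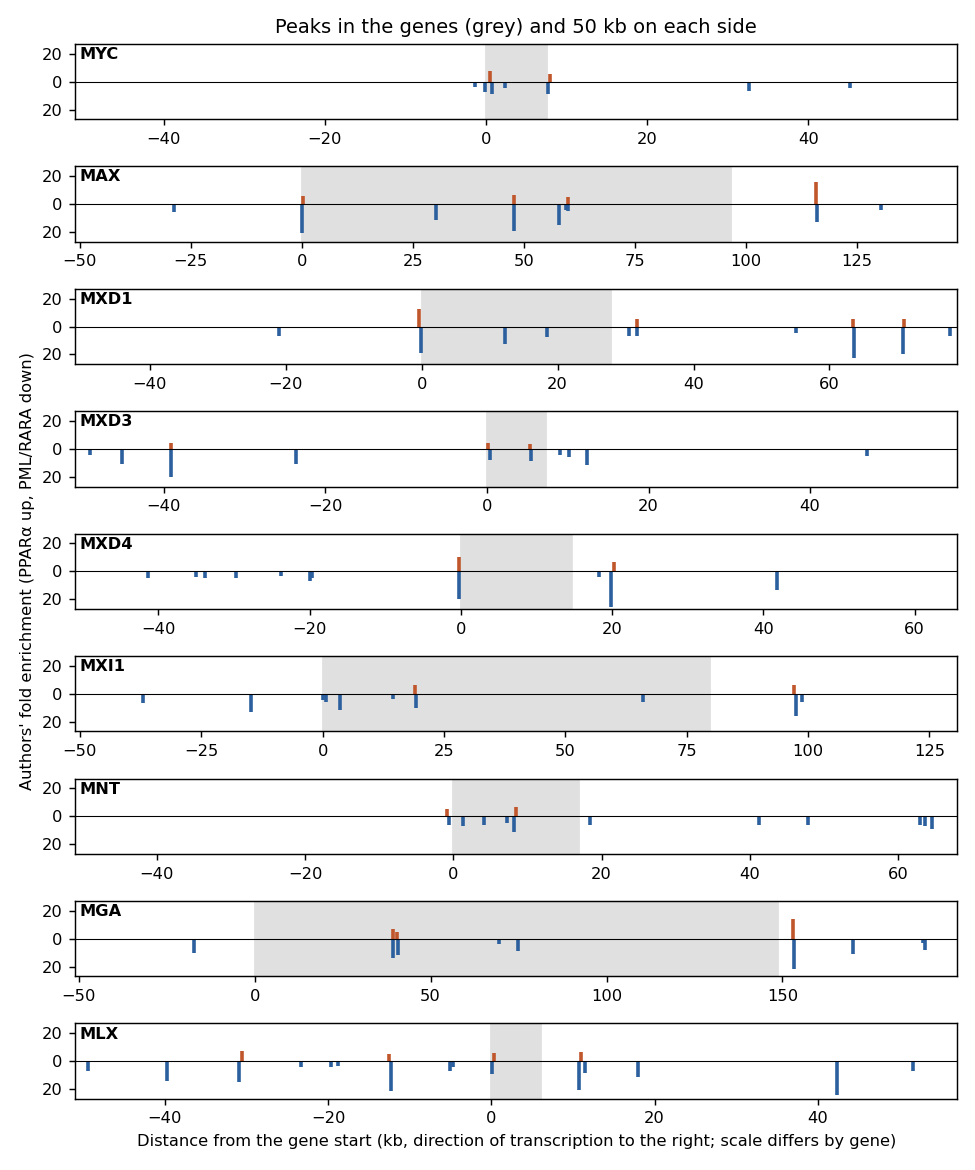
Every peak in each gene (grey) and 50 kb on each side, with the authors' fold enrichment drawn upward for PPARα (orange) and downward for PML/RARA (blue), against distance from the gene's start in kb. The x scale differs between genes; PML/RARA peaks outnumber PPARα peaks in all 9 windows.

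The overlap of the antibodies in these windows was close to that in the full lists. Of 37 PPARα peaks, 33 shared at least 1 base with PML/RARA (89.2%, 95% Clopper-Pearson interval 74.6 to 97.0), and the share over all PPARα peaks was 90.1%. Of 122 PML/RARA peaks, 35 overlapped PPARα (28.7%, 20.9 to 37.6), and the share over all PML/RARA peaks was 21.4%, inside that interval. The intervals cover counting error over peaks only. With summits required within 200 bases of each other, the share was 18 of 37 in these windows (48.6%, 31.9 to 65.6) and 5457 of 9819 over all PPARα peaks (55.6%), which lies inside that interval.

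The 2 Mb downstream of MYC, which holds PVT1, CCDC26 and known blood enhancers of MYC, had 12 PPARα and 33 PML/RARA peaks. A stretch of that length beyond the higher-coordinate end of each coding gene, taken whatever its strand, had a median of 10 PPARα (interquartile range 5 to 17) and 40 PML/RARA (15 to 95) peaks. Both MYC counts lay inside those ranges. The peaks fell into a near and a far block, with a boundary at 700 kb set after the peaks had been seen. PPARα had 4 near peaks (7.90 to 182 kb from the MYC start) and 8 far peaks (1568 to 1944 kb). PML/RARA had 16 near (7.74 to 314 kb) and 17 far (1801 to 1962 kb). Between the blocks were 1386 kb without a PPARα peak and 1486 kb without a PML/RARA peak.

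**Figure D4:**
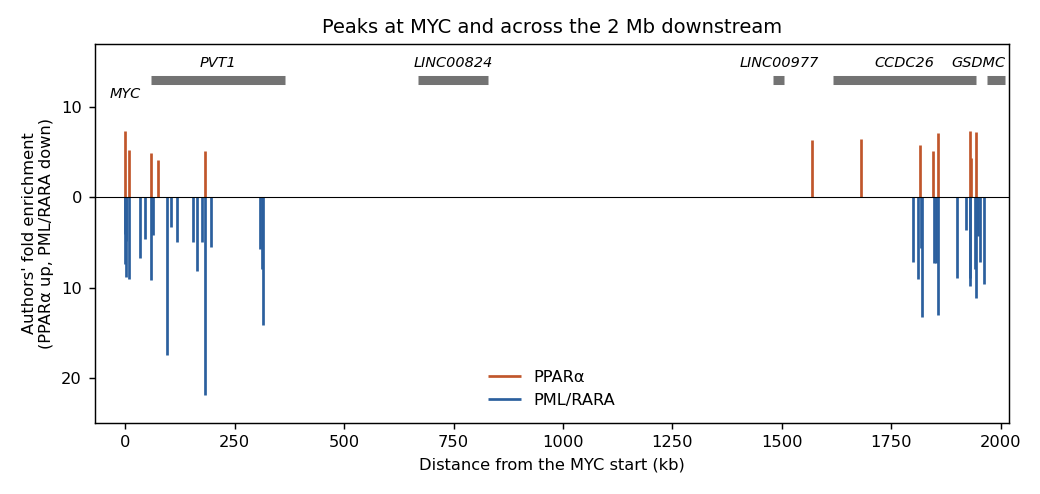
Peaks at MYC and across the 2 Mb downstream, with the authors' fold enrichment upward for PPARα (orange) and downward for PML/RARA (blue), against distance from the MYC start in kb; grey bars mark annotated genes. Peaks cluster over MYC and PVT1 and again over CCDC26, with no peak of either list from 314 to 1568 kb.

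In the near block most peaks lay in PVT1, the long noncoding RNA gene beside MYC (127794524 to 128101256), with 13 for PML/RARA and 3 for PPARα. Its tallest, 182 kb from the MYC start, had fold 21.97 and −log10 q 98.9, the highest −log10 q of the downstream region, and overlapped a PPARα peak of fold 5.09 and −log10 q 3.98. The next was at 96.4 kb, with fold 17.5 and −log10 q 43.8, and had no PPARα overlap. At the lower annotated end of PVT1, PPARα (59.4 kb, fold 4.92) and PML/RARA (59.1 kb, fold 9.18) overlapped. A PPARα peak at 75.5 kb (fold 4.18, −log10 q 4.63) had no PML/RARA overlap. The peak at the far end of MYC, given above, completes the 4 near PPARα peaks, whose median fold was 5.001.

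In the far block the PPARα peaks were higher, with a median fold of 6.38, and 7 of the 8 lay inside CCDC26, a noncoding RNA gene (129351694 to 129680239) in sequence known for a MYC enhancer of blood stem and leukemic cells. The 3 highest by −log10 q were at 1944 kb (fold 7.21, −log10 q 16.2), 1931 kb (fold 7.35, −log10 q 14.3) and 1856 kb (fold 7.11, −log10 q 14.2), and each overlapped PML/RARA. The PML/RARA peaks at these places had fold 11.1 (−log10 q 36.9), folds 8.94 and 9.79 (a pair, −log10 q 15.2 and 17.6), and fold 13.1 (−log10 q 33.1). The PML/RARA peak with the highest −log10 q of the far block, at 1819 kb (fold 13.3, −log10 q 45.2), had no PPARα overlap. PPARα also overlapped PML/RARA at 1817 kb (PPARα fold 5.76, −log10 q 10.3) and 1846 kb (PPARα fold 5.09, −log10 q 4.21).

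The remaining 3 far PPARα peaks had no PML/RARA overlap. They lay at 1568 kb, between genes (fold 6.32, −log10 q 6.03), at 1680 kb in CCDC26 (fold 6.44, −log10 q 6.198) and at 1932 kb in CCDC26 (fold 4.32, −log10 q 4.36). The nearest PML/RARA summit was 232320 bases from the first, 120309 from the second and 1008 from the third. With the near peak at 75.5 kb, these were the only PPARα peaks without PML/RARA in any window of the family. That is 4 of 37, and over all PPARα peaks 974 of 9819 had no PML/RARA overlap.

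CCDC26 held more PPARα peaks than any other of 18177 annotated long noncoding RNA genes on the chromosomes analysed, 7 against a next highest of 4 (LYRM4-AS1 and PDCD6-AHRR). It remained first among PPARα peaks of −log10 q at least 5 (5 against 3) and of fold at least 5 (6 against 3). For PML/RARA, with 13 peaks, 9 such genes had more. Among the 987 of these genes that are at least 100 kb long, like CCDC26 and PVT1, the median was 0 peaks in each list. This ordering was made after the CCDC26 peaks had been seen, is a description of a single list, and takes no account of gene length.

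Genes of related pathways were counted by the peaks at their annotated ends. These gene lists were also chosen with earlier results of these data known, so their counts are descriptions. Over all protein-coding genes the share was 32.3% for PPARα and 57.8% for PML/RARA. The other dimer partners MYCN, MYCL, MLXIP and MLXIPL had no PPARα peak at an end, whereas 3 of 4 had PML/RARA; MYCN had neither. Of 15 activating cofactors of MYC, which acetylate, remodel or elongate, 11 had PPARα and all 15 had PML/RARA. Those with the highest PPARα −log10 q among genes with both were KAT5 (fold 11.6), a histone acetyltransferase, RUVBL2 (12.96), an ATPase of chromatin complexes, CCNT1 (10.6), the cyclin of the elongation kinase, ACTL6A (10.2), WDR5 (8.40) and HCFC1 (5.58).

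Corepressors that the MXD and MNT proteins recruit, counted with the MYC-binding repressor ZBTB17, carried PPARα in 5 of 9 cases and PML/RARA in 9 of 9. Genes with both included SAP18 (PPARα fold 6.70), SIN3A (6.14), HDAC2 (6.06) and ZBTB17 (6.01). Of 9 partners of MGA in PRC1.6, only CBX3 (PPARα fold 10.4), a heterochromatin protein, and RNF2 (5.80), a ubiquitin ligase, had PPARα, while 9 of 9 had PML/RARA. Of the 6 pathway lists, PRC1.6 (2 of 9, 22.2%) and the dimer partners (0 of 4) had a PPARα share under that of all coding genes, 32.3%. These are small lists. The PML/RARA share over all coding genes was 57.8%.

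Genes that control the stability of MYC protein had a PPARα peak in 8 of 10 cases, against 32.3% of all coding genes. They had a PML/RARA peak in 10 of 10, against 57.8%. Among the highest by PPARα −log10 q were GSK3B (fold 11.2, −log10 q 45.7), which phosphorylates MYC for destruction, TRIB1 (9.60), CIP2A (9.02), which protects MYC from dephosphorylation, FBXW7 (7.94), the ubiquitin ligase subunit that recognises phosphorylated MYC, and AURKA (6.81). GSK3B had a higher PPARα −log10 q than any start peak of the 9 network genes. Of 20 textbook MYC target genes, 13 had PPARα and 18 PML/RARA. They included APEX1 (PPARα fold 10.3), HSPD1 (11.3), EIF4E (9.72), PRMT5 (8.23), NCL (7.39) and ODC1 (7.73), while TERT and CDKN1A had neither at an end.

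**Figure D5:**
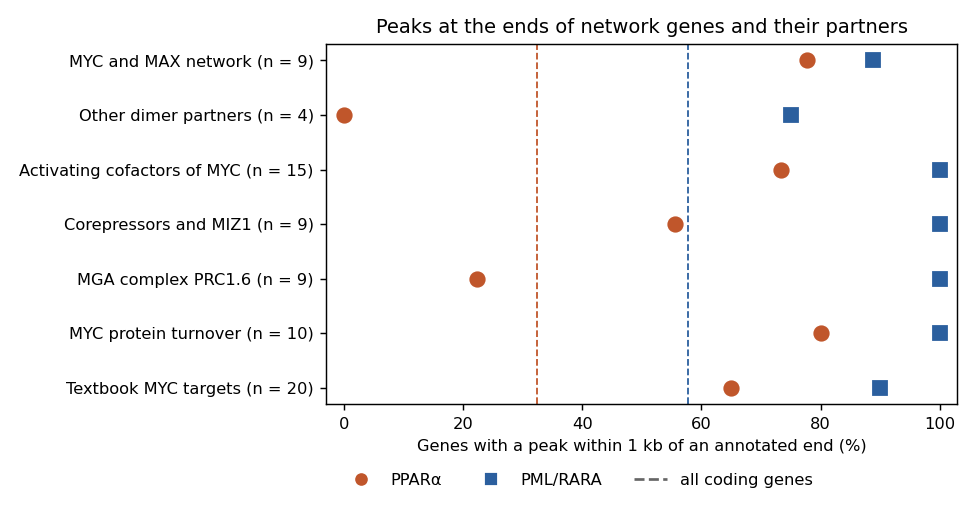
Share of genes in the network and in each of the 6 pathway lists with a peak within 1 kb of an annotated end, PPARα as circles and PML/RARA as squares, with n the genes measured. Dashed lines mark the shares over all protein-coding genes, 32.3% for PPARα and 57.8% for PML/RARA; of the 7 groups plotted, only the dimer partners and PRC1.6 lie left of the PPARα line.

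Peaks at marker genes did not set promyelocytic genes apart from lymphoid ones. PML/RARA had a peak at an end of 8 of 10 promyelocytic genes (not ELANE or CD33), against 57.8% of all coding genes. PPARα had a peak at 1 of 10 (MPO, with fold 3.99), against 32.3%. Lymphoid genes had PML/RARA at 4 of 5 and PPARα at 1, CD8A. That PPARα peak had fold 3.30 and −log10 q 1.47, close to the lowest −log10 q of its list, 1.32. Erythroid genes had no peak of either list (0 of 5), and hepatocyte genes had PML/RARA at 2 of 5 and no PPARα. A peak marks chromatin and not expression, so these counts do not test cell identity, and the part of background in them was not tested, since no IgG values were used here.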

How the data were processed

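CUT&Tag libraries of NB4 cells gave 2 peak lists, 1 per antibody, on hg38, and the IgG libraries have no file used here. Bowtie2 2.2.9, bedtools, SAMtools and MACS 1.4.2 appear in the submitters' processing notes, with no roles, and no source used here says whether IgG served as control in peak calling. The deposited lists hold 9829 PPARα and 46021 PML/RARA peaks, each with the authors' fold enrichment (a linear ratio) and q-value as −log10, which served here to rank, filter and describe peaks of the same list. Their narrowPeak layout is newer than that MACS release, which leaves the caller's version uncertain. The shortest PPARα peak was 301 bases and the shortest PML/RARA peak 103 bases, so calling settings may have differed.

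Peaks on chromosomes 1 to 22 and X were kept, leaving out 10 PPARα and 33 PML/RARA peaks. Gene positions, promoters and miRNAs came from RefSeq tables (GRCh38.p14); the gene table has no strand or exons, so a position inside a gene is not given as exonic or intronic, and the strand of MYC is textbook knowledge. A gene end or start carried a peak when one overlapped the window of 1 kb around it. The best peak is the one with the highest −log10 q. Positions are counted from 1. The members and gene lists were chosen with earlier results of these data known. All 9 members are named with the peaks at their ends or inside them, the highest peak of each list in each window, the 5 highest and every PPARα peak downstream of MYC, and up to 6 genes with both peaks per list, except a few that are counted but not reported here by name. Python 3.11.15, pandas 2.3.3, NumPy 2.4.6 and SciPy 1.17.1 were used, and the interval counting was tested on simulated peaks.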

Additional observations from a re-analysis of the deposited data

How the results depend on the processing

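Of 36 alternatives tried on 9 results, 26 stayed within limits (counts within 1.5 times, shares within their interval) and 10 moved. With −log10 q of at least 5, PPARα peaks in the windows fell from 37 to 23 and those downstream of MYC from 12 to 7. A downstream region of 1 Mb held 4 PPARα and 16 PML/RARA peaks. With flanks of 10 kb the windows held 78 PML/RARA peaks. Cutting PML/RARA to its best peaks, as many as PPARα has, left 32 in the windows and 3 downstream of MYC. The share of PPARα peaks overlapping PML/RARA was 48.6% with summits within 200 bases, 70.3% when at least 50% of the PPARα peak had to be covered, and 62.2% with the shortened list. Over all PPARα peaks the same rules gave 55.6%, 71.1% and 54.8%. The gene-end counts ranged from 6 to 8 for PPARα and from 7 to 9 for PML/RARA. Under the same settings the share of all coding genes ran from 23.9% to 38.6% for PPARα and from 30.2% to 68.2% for PML/RARA. MXD3 was the gene lost from the PPARα count in both stricter lists, and MXI1 was lost from PML/RARA in its shortened list. MGA was gained in both lists with windows of 5 kb, through the peaks at its neighbour MAPKBP1. The CCDC26 alternatives were added after seeing the data. No paired analysis was possible because each antibody has 1 list. Read depth is unknown, so no peak means only that none was called.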

Other observations

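PML/RARA peaks at several network genes combined a modest fold with a very high −log10 q. In MNT, 5 PML/RARA peaks at the start or in the body had folds between 4.88 and 11.1 and −log10 q between 36.6 and 157. At MLX a fold of 9.14 went with −log10 q 85.3, while at MAX a fold of 20.6 went with 99.9. Fold and −log10 q therefore order the start peaks of the family differently: MAX was first by fold and MXD4 by −log10 q, and MNT was last of 9 by fold. The lists give no read counts from which to follow this further.

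At MYC the PPARα start peak overlaps 2 PML/RARA peaks with its summit between theirs, though the second runs past its end. At 1931 kb downstream a single PPARα peak again overlaps 2 PML/RARA peaks (folds 8.94 and 9.79), the first of them only in part and with its summit outside the PPARα peak. PPARα peaks are wider than PML/RARA peaks in general, with median widths of 503 and 241 bases, and whether the calling settings set this was not tested.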
